A study of Caenorhabditis elegans with 2 samples.

Results

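The proteasome subunit genes of Caenorhabditis elegans were taken here as the protein-coding genes named pas, pbs, rpt or rpn with a number in the Ensembl annotation of WBcel235, the build also known as ce11. The rule found 33 genes among 19973 protein-coding genes of the nuclear chromosomes. They fall into 14 genes of the core particle (7 pas and 7 pbs), 6 ATPase genes (rpt) and 13 non-ATPase genes of the regulatory particle (rpn). Each gene was described by the strongest peak whose summit, the point of highest signal in a peak, fell in a stretch from 1000 bp before to 200 bp after any annotated 5' end of the gene. That stretch is called the promoter window, and a peak with its summit there a promoter peak.

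The peaks come from chromatin immunoprecipitation and sequencing (ChIP-seq) of the F33H1.4 protein, which RefSeq annotates as a C2H2-type zinc finger protein, in whole animals. The series holds 1 group of 2 biological replicates of strain RW12303, in which a TY1, EGFP and 3xFLAG tag was inserted at F33H1.4 on chromosome II with CRISPR. The animals were young adults of 62.5 hours, grown from L1 larvae that had been starved after bleaching, and the antibody was raised against GFP. There was no second genotype or treatment, no control library was analysed here, and both replicates carry the same strain, so binding cannot be told apart from a general gain of signal at open or highly transcribed promoters. Whole animals mix all tissues, so the cells in which a peak arose are unknown.

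The proteasome degrades proteins that carry ubiquitin chains. Its core particle is a barrel of stacked rings: the alpha subunits (pas genes) form the outer rings and the gate, and the beta subunits (pbs genes) form the inner rings, where pbs-1, pbs-2 and pbs-5 encode the subunits with peptidase activity. The regulatory particle caps the barrel. Its base holds a ring of AAA ATPases (rpt genes), which unfold the substrate and thread it into the core, with the scaffolds rpn-1 and rpn-2 and the ubiquitin receptors rpn-10 and rpn-13. Its lid holds rpn-11, the enzyme that removes ubiquitin from the substrate, its partner rpn-8, and subunits such as rpn-3, rpn-5, rpn-6, rpn-7, rpn-9 and rpn-12 that form the frame of the lid. These roles were mostly worked out in yeast and mammals. In C. elegans the transcription factor SKN-1A raises the expression of proteasome genes when proteasome function is impaired.

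The deposited lists held 3250 peaks made from both replicates (the series list), 2219 peaks for replicate 1 and 2733 for replicate 2. The lists do not give the number of reads behind them, so depth is unknown. The signal of a peak is the authors' own value, with no stated scale between lists, so percentiles, the share of a list's peaks with an equal or lower signal, were used to set lists side by side.

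Peaks stood at 19 of the 33 proteasome genes in the series list, which is 57.6% of them, where 12.8% of all protein-coding genes had one (14.5% of autosomal genes, and every proteasome gene is autosomal). Among the groups, the lid genes found by the naming rule were the most fully covered: 8 of these 9 had a promoter peak, and rpn-7 had none. Among them, rpn-6.1 and rpn-6.2 count only through an inner 5' end. An opposite-strand 5' end lies within 1000 bp upstream of 8 of the 9, and 7 of those had a peak, against 33.5% of all genes so arranged. Subunits under other names are outside the rule. Of the 4 non-ATPase genes of the base, the scaffolds rpn-1 and rpn-2 had a peak and the ubiquitin receptors rpn-10 and rpn-13 had none. The first pair has such an opposite-strand neighbour and the second pair has none, so role and arrangement cannot be told apart here. Of the 6 ATPase genes, rpt-1, rpt-3 and rpt-6 had one. Among the core genes the count was 4 of 7 for alpha subunits (pas-4, pas-5, pas-6 and pas-7) and 2 of 7 for beta subunits (pbs-1 and pbs-7). Of the 3 peptidase genes only pbs-1 had a promoter peak in the series list. These counts are a description: genes are not replicates, the group has no contrast, and no test was made.

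**Figure D1:**
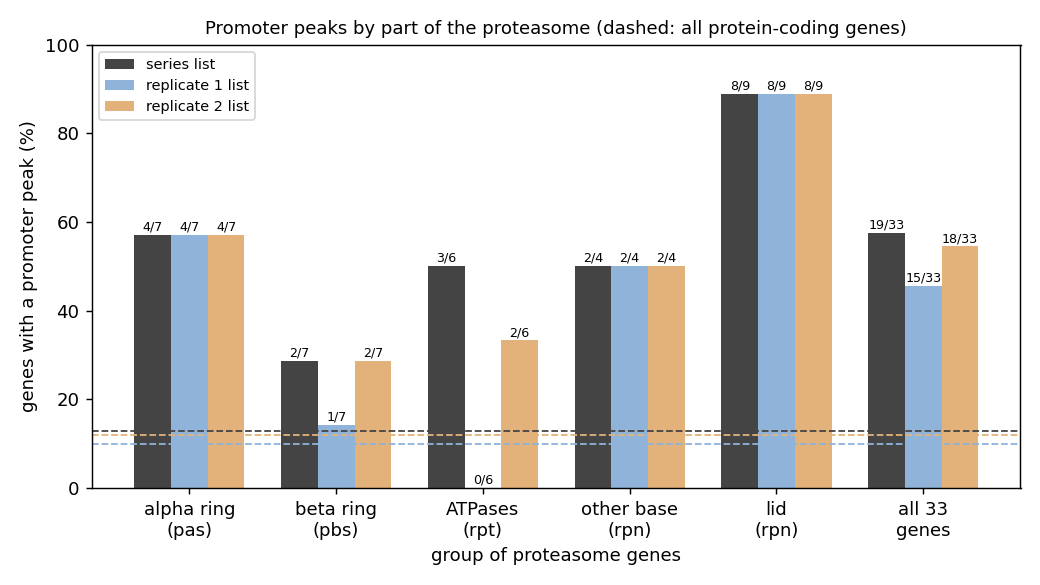
Share of proteasome genes with a promoter peak, in percent, by group of subunits and by peak list, with the number of genes above each bar and a dashed line per list for all protein-coding genes. Of the 9 lid genes found by the naming rule, 8 have a peak in the series list and in each replicate's list. The ATPases go from 3 of 6 in the series list to 0 of 6 in the list of replicate 1.

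The list of replicate 1 held a promoter peak for 15 proteasome genes, against 9.95% of all genes, and the list of replicate 2 for 18, against 12% of all genes. The lid count was 8 in either list, the non-ATPase count 10 and the alpha subunit count 4. Of the ATPase genes 0 of 6 had a peak in the list of replicate 1 and 2 of 6 (rpt-2 and rpt-3) in that of replicate 2. The thresholded lists are cut on the deposited score, which is 830 or above in them, and not on signal. For rpt-3 the unthresholded score was 682 in replicate 1 and 963 in replicate 2, with signals of 52.4 and 55.3. The scores were 404 and 575 at rpt-1 and 573 and 82 at rpt-6. The signals of rpt-1 (45.7 and 40.8) and rpt-6 (60.8 and 47.1) were higher in replicate 1. A promoter peak in both lists was found at 15 proteasome genes, against 9.36% of all genes, and those 15 genes also had one in the series list. They were 4 alpha subunits, pbs-1 and 10 non-ATPase genes, with no ATPase gene among them. The peaks of pbs-7, rpt-1 and rpt-6 were in the series list alone of these 3 lists, rpt-3 was in the series list and that of replicate 2, and pbs-2 and rpt-2 were in that of replicate 2 alone. In the companion list that the authors call conservative, 20 proteasome genes had a peak, against 12.5% of all genes, with rpt-2 added at a signal of 52.2.

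The lid gene rpn-3, a frame subunit, carried the strongest peak of the 33 genes. It spanned chrIII:8446479-8447376, between rpn-3 on the plus strand and hsp-110 on the minus strand, with a signal of 3922 and rank 11 of 3250. Its signal was 1580 in replicate 1 and 2363 in replicate 2, rank 10 in both lists. The summit lay 188 bp upstream of rpn-3 and 256 bp upstream of hsp-110, which encodes a chaperone of the Hsp110 family. In each list the peak stood among the highest, and the summits of the 2 replicates were 8 bp apart.

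Below rpn-3 came the frame subunit rpn-5, with a signal of 1193 (rank 252), and 503.4 and 687.0 in replicates 1 and 2. Its summit at chrII:4698458 lay 31 bp upstream of the outermost 5' end of rpn-5 and 263 bp upstream of scc-1, a cohesin subunit on the other strand. The paralog rpn-6.2 had a signal of 1091 (rank 291), and 416.9 and 678.3 in the replicates. The scaffold gene rpn-1 had 832.3 (rank 418), and 330.7 and 500.5. For these genes the order of signals was the same in both replicates. The remaining lid genes with a peak were rpn-9 at 647.2, rpn-12 at 606.3, the deubiquitinase rpn-11 at 397.2, rpn-6.1 at 328.2 and rpn-8 at 311.4, and the scaffold rpn-2 had 371.7. The strongest promoter peak of each of these 10 non-ATPase genes was therefore at 311.4 or above, in the stronger 50% of the series list. The same held for 1702 of the 2547 genes with a promoter peak. A second summit in the promoter window of rpn-3 had a signal of 28.4.

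In the core particle the alpha subunit gene pas-4 was highest, with a signal of 753.2 in the series list (rank 460), 274.0 in replicate 1 and 480.3 in replicate 2. The peptidase gene pbs-1 had 521.6 (rank 663), and 233.0 and 293.4 in the replicates. The alpha subunit gene pas-5 followed at 387.2, with 158.9 and 224.7. The genes pas-6 (280.3) and pas-7 (279.8) were close to each other in the series list and in each replicate, at 89.5 and 90.0 in replicate 1 and at 184.8 and 200.2 in replicate 2. The beta subunit gene pbs-7 was lowest of the core at 121.1, from a peak of 85 bp, the narrowest of the 19.

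The ATPase peaks were weak. The signal was 113.0 at rpt-3 (rank 2180), 103.5 at rpt-6 (rank 2343) and 89.7 at rpt-1 (rank 2635). These lay below each non-ATPase value and below each core value, so the ATPase group did not overlap the other 2 groups in the series list. The gap to the core was narrow, from 113.0 at rpt-3 to 121.1 at pbs-7. In the unthresholded list of replicate 1, rpt-6 (60.8) was above pbs-7 (53.4), and rpt-1 (45.7) and rpt-3 (52.4) were below it. In that of replicate 2, pbs-7 (63.5) was above rpt-1, rpt-3 and rpt-6 (40.8 to 55.3). How many of the 2547 genes with a promoter peak in the series list lay at or below 113.0 is not given here. The median percentile was 27.9 for the 3 ATPase genes, 70.7 for the 6 core genes and 82.8 for the 10 non-ATPase genes, beside 66.9 over the 2547 genes with a promoter peak. Over the 19 proteasome genes it was 74.0, with a median signal of 387.2 against 273.4 over all genes with a promoter peak. The 3 ATPase peaks were each 340 bp wide. That was the commonest width of the series list (1440 peaks, 44.3%), and peaks of that width had a median signal of 95.8, against 343.2 for peaks of other widths. The order of the groups covers genes with a peak alone, rests on 3 ATPase genes and was not tested. The non-ATPase genes without a peak, rpn-7, rpn-10 and rpn-13, had unthresholded signals of 39.1 or less where a region was listed (rpn-13 had none in replicate 1), below those of rpt-1, rpt-3 and rpt-6 (40.8 to 60.8).

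**Figure D2:**
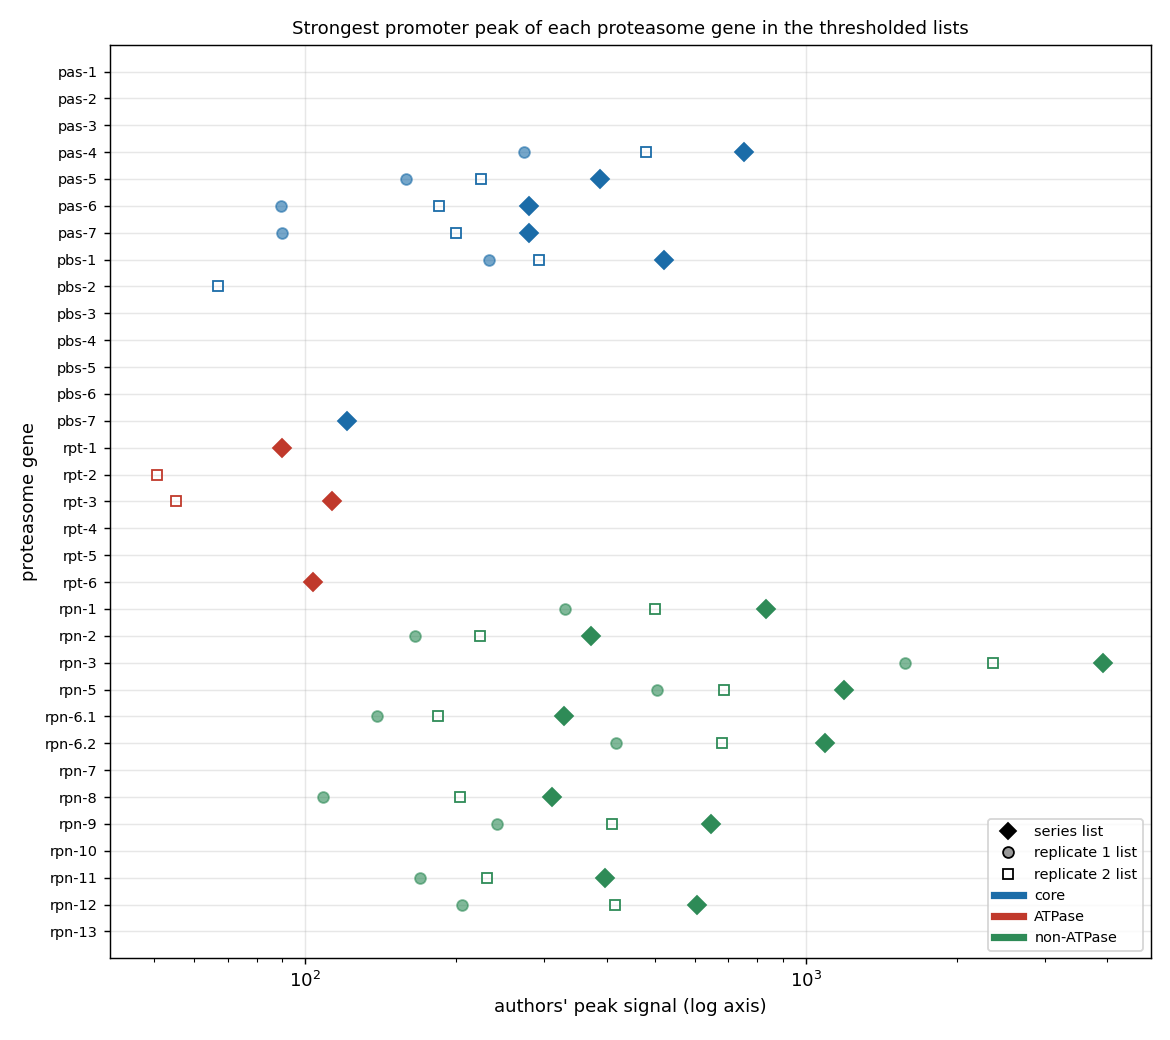
Signal of the strongest promoter peak of each of the 33 proteasome genes on a log axis, with separate marks for the series list and the lists of replicates 1 and 2, grouped by subunit class; signals have no stated scale between lists. The 10 non-ATPase genes with a peak lie at 311.4 or above in the series list and the 3 ATPase genes at 113.0 or below.

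The sequence under 11 of the summits is given here from the RefSeq genome of WBcel235, 50 bp to each side of the summit, on the strand of the gene and 5' to 3', with the summit at base 51. The first set shows 2 genes of each group with strong peaks for that group, so that the groups can be read side by side; the stronger pas-4, pas-5 and rpt-3 are not among the sequences shown. Capitals mark TGTCAT, a core of sites bound by SKN-1 type factors, and 5 words of 6 bases that stood out at the summits of other peaks, each on either strand. A pair that can overlap is GAGACC with GCGAGA. The others, which can overlap in a run of their own, are GGCGCA with the related AAGGCG, and also the flanking CCTTTA. The regions are chrIV:1709883-1709983 (minus strand) for pbs-1, chrV:5584521-5584621 (minus) for pas-6, chrIII:12370166-12370266 (plus) for rpt-6, chrV:11982462-11982562 (minus) for rpt-1, chrIII:8447115-8447215 (plus) for rpn-3 and chrII:4698408-4698508 (minus) for rpn-5.
pbs-1: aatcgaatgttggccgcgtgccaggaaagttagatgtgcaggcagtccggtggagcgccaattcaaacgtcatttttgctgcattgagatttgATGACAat
pas-6: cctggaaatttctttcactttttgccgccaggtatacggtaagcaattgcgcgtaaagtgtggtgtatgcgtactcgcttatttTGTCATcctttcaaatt
rpt-6: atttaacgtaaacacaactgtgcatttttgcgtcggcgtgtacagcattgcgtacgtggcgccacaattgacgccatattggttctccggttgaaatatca
rpt-1: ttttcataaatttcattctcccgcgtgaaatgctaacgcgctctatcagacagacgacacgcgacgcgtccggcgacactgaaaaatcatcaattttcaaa
rpn-3: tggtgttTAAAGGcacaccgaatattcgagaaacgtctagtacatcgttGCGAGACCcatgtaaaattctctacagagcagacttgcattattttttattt
rpn-5: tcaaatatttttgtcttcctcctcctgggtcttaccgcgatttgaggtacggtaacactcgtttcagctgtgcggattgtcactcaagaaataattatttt

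The second set holds the 4 genes shown here whose summit window carried both GAGACC and GGCGCA. They were picked for holding both words, so the joint presence of the words is not a result. The regions are chrII:10100068-10100168 (minus) for pas-7, chrIV:6910211-6910311 (minus) for rpn-1, chrIII:9001616-9001716 (minus) for rpn-6.2 and chrII:11652917-11653017 (plus) for rpn-12. In each of them the words from GGCGCA to CCTTTA overlap in 1 run of capitals, and in 3 of them GAGACC overlaps with its pair in another. The order of the words differs. The run lies before GAGACC in pas-7 and rpn-12, and after it as the reverse complement in rpn-1 and rpn-6.2.
pas-7: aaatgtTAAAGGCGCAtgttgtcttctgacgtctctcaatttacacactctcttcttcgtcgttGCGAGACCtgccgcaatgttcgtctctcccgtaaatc
rpn-1: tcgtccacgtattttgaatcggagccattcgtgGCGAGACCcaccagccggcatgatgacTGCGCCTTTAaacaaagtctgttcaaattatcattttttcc
rpn-6.2: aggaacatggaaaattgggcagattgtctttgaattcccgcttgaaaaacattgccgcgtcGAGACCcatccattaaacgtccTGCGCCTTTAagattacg
rpn-12: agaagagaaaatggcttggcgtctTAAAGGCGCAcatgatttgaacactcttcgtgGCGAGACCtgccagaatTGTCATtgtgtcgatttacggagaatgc

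The last sequence, chrIII:6961303-6961403 (minus) at rpn-6.1, is shown for its TGTCAT in a window with none of the other words.
rpn-6.1: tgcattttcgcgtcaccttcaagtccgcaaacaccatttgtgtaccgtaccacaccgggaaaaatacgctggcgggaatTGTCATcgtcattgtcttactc

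The 5 summit words were chosen, after the data had been seen, on 3230 peaks that were not promoter peaks of proteasome genes. Of those peaks 27.3% held GAGACC within 50 bp of the summit and 4.49% in a window of the same size 300 bp away. Among the 19 proteasome summits 7 held GAGACC (pas-5, pas-7, rpn-1, rpn-3, rpn-6.2, rpn-8 and rpn-12), which is 36.8%, beside 27.2% of the 2030 promoter peaks of the series list. GGCGCA was in 6 of the 19 windows, against 22.7% of promoter peaks. AAGGCG was in 6, against 20% of promoter peaks, GCGAGA in 5, against 20.2%, and CCTTTA in 7, against 19.9%. At least 1 of the words was in 9 windows, 47.4% of the 19, and in 48.6% of promoter peaks. The share of proteasome summits with at least 1 word was thus near that of promoter peaks. Each single word was in a larger share of the proteasome windows, most of all CCTTTA (36.8%, against 19.9%). The words sat together in few genes: pas-7, rpn-1 and rpn-12 held all 5. These differences were not tested. The 10 windows without any of them were those of pas-4, pas-6, pbs-1, the 3 ATPase genes, rpn-5, rpn-6.1, rpn-9 and rpn-11. They include strong peaks, such as those of rpn-5 (1193) and pas-4 (753.2).

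In the series list TGTCAT was found near 5 proteasome summits, at pas-6, pbs-1, rpn-6.1, rpn-11 and rpn-12. That is 26.3% of the 19 windows, where 3.1% of promoter peaks held it on either strand. None of the 5 lay at the summit itself: no proteasome summit had TGTCAT within 25 bp, and 7 had it within 100 bp, against 6.45% of promoter peaks. In those 7 genes, rpn-1 and rpn-2 included, the word stood between 25.5 and 90.5 bp downstream of the summit, on the side of the gene. Which genes held it within 50 bp depended on the list. By the summits of replicate 1 they were pbs-1, rpn-2, rpn-6.1, rpn-11 and rpn-12 (3.1% of promoter peaks). By those of replicate 2 they were pas-6, rpt-2, rpn-6.1 and rpn-12 (2.93%). Only rpn-6.1 and rpn-12 held it in the series list and in both replicate lists. In promoter sequence from 250 bp before to 50 bp after the outermost 5' end, TGTCAT was present at 12 of the 33 proteasome genes (36.4%) and at 16.4% of all genes. It was present at 7 of the 19 genes with a peak (36.8%), against 12.6% of the 2547 genes with a peak. Of the 14 genes without a peak 5 held it (pas-2, pbs-2, pbs-6, rpt-2 and rpn-7). The related TATCAT was in 4 of the 33 promoters (12.1%), against 19.4% of all genes. All 4 were of genes with a peak (21.1% of the 19, against 14.2% of the 2547 genes with a peak). A match says only that these letters are in the window.

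Other words searched on both strands within 50 bp of the 19 summits were rare or near the share of promoter peaks. TTTGAA, a cell cycle type word, was in 7 windows (36.8%, against 26.6% of promoter peaks). Within 100 bp it was in 16 (84.2%, against 47.9%). TTCCCGC, an E2F type word, was in 2 windows (10.5%, against 4.68%), and TATCAT was in 2 (10.5%, against 1.97%). TTATCA was in 1, against 3.35% of promoter peaks. GAGAGA was in 1 too, against 10.3%, as was GCGCGC, against 11.4%. The E-box CACGTG was in 0 of the 19 windows, against 2.46% of promoter peaks. The G and C content of the windows had the same median, 44.6%, at proteasome summits and at promoter peaks, so base composition was alike on that measure.

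All 19 summits lay upstream of a 5' end of their gene, as 94.9% of the strongest promoter summits did over all genes. The median distance was 228 bp upstream, against 247 bp over all genes with a promoter peak. The nearest were those of rpn-11, at 10 bp, and rpn-5, at 31 bp. The farthest were those of rpn-6.2, at 785 bp, and rpt-3, at 687 bp. Both rpn-6 paralogs encode a frame subunit of the lid, and in both the summit lay inside the annotated gene. It was in an intron, 648 bp downstream of the outermost 5' end of rpn-6.1 and 333 bp downstream of that of rpn-6.2, so it counts as upstream only of an inner 5' end. The summit assigned to rpt-3 lay in the UTR of chtb-2, the gene upstream on the same strand. The summits of pas-4, pas-7 and rpn-1 were in exons of the non-coding genes C36B1.16, ZK945.13 and T22D1.19, and the remaining 13 were between genes.

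**Figure D3:**
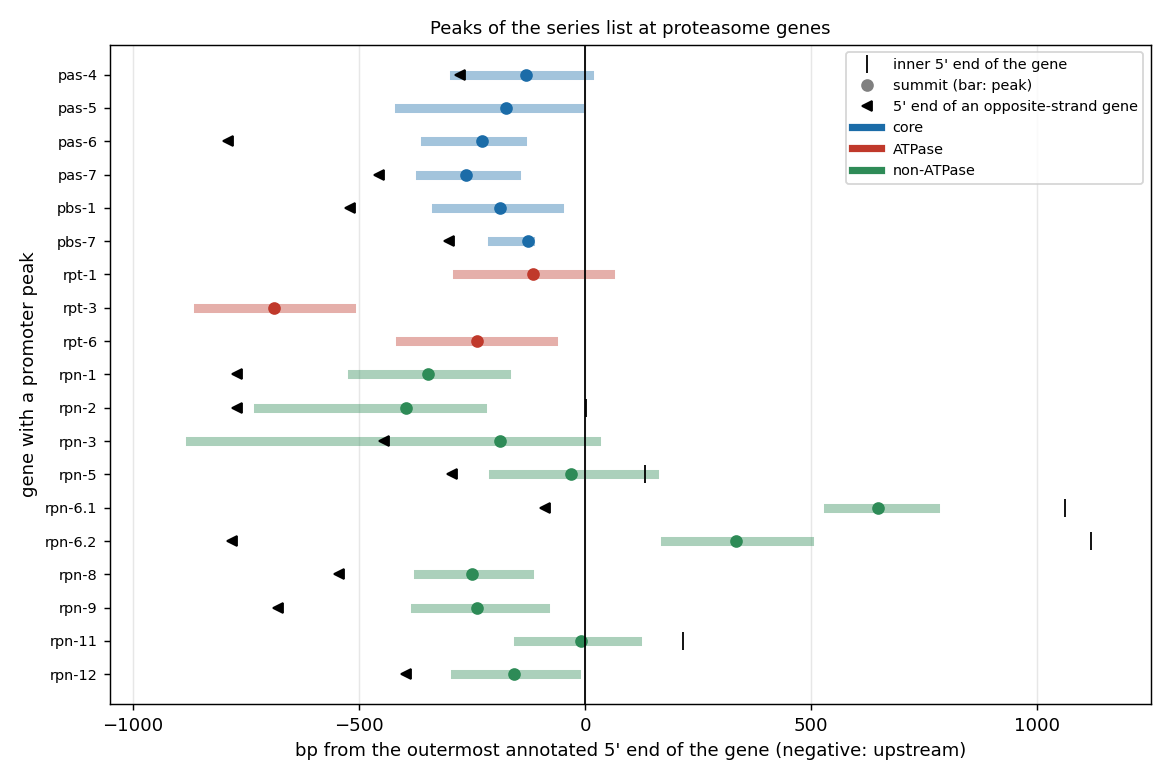
Position of the 19 peaks of the series list around the outermost annotated 5' end of each proteasome gene, in bp with upstream negative; bars are peaks, circles summits, triangles the 5' end of an opposite-strand gene within 1000 bp and ticks an inner 5' end. The summits of rpn-6.1 and rpn-6.2 lie 648 and 333 bp downstream of the outermost 5' end, and the other 17 lie upstream of it.

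Many of these promoters serve a gene on each strand. The strongest summit of 13 of the 19 genes (68.4%) lay in the promoter window of an opposite-strand gene too, against 52.8% over all genes with a promoter peak. Which gene such a peak belongs to cannot be told apart from its position. The partner of rpn-12 was rad-23, a shuttle factor that brings ubiquitinated proteins to the proteasome, with the summit 157 bp upstream of rpn-12 and 238 bp upstream of rad-23. Others were rpb-3, an RNA polymerase II subunit, beside pas-4, ribo-1, of the oligosaccharyltransferase, beside rpn-1, and mrps-6, of the mitochondrial ribosome, beside rpn-8. The summit was nearer to the partner at pas-7 (192 bp from puf-12, against 264 bp from pas-7) and at rpn-2 (374 bp from C23G10.7, against 396 bp from rpn-2). Giving each summit to the nearest 5' end alone left 17 proteasome genes with a peak, against 9.38% of all genes. The other partners were CD4.11 beside pas-6, K08D12.3 beside pbs-1, F39H11.1 beside pbs-7, F57B9.1 beside rpn-6.1 and T06D8.9 beside rpn-9, with hsp-110 and scc-1 as given above.

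Gene arrangement moved with the presence of a peak, among proteasome genes as among all genes. A summit counts for every gene whose promoter window holds it. A gene close to an opposite-strand 5' end can therefore also collect the peaks of that neighbour. How much of the difference comes from this rule was not tested. Of the 33 genes, 21 have the 5' end of an opposite-strand gene within 1000 bp upstream, and 14 of these 21 had a promoter peak, against 33.5% of all genes so arranged. Of the other 12, which lack such a neighbour, 5 had one (pas-5, rpt-1, rpt-3, rpt-6 and rpn-11), against 8.30% of all such genes. The 3 ATPase peaks were among these 5, so the ATPases went the other way: 0 of 2 with such a neighbour had a peak and 3 of 4 without. Conversely, 9 proteasome genes follow a same-strand gene that ends within 1000 bp upstream, and 4 of them had a peak (rpt-1, rpt-3, rpn-6.2 and rpn-11), against 11.1% of all genes in that position. Of the 24 without such a gene 15 had one, against 13.5%. In each of these 4 arrangements the share of proteasome genes with a peak was above the share of all genes, with 4 to 15 genes behind it.

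Below the threshold the regions were still listed. In the unthresholded list of replicate 1, which holds 33529 regions, 31 of the 33 proteasome genes had a promoter region, against 41.4% of all genes, and rpt-5 and rpn-13 had none. In that of replicate 2, with 30974 regions, all 33 had one, against 40.1% of all genes. The 14 genes without a peak in the series list had signals of 10.6 to 39.1 in replicate 1, with a median of 24.9 over the 12 with a region, and of 9.4 to 67.1 in replicate 2, with a median of 33.4. The median over each whole unthresholded list was 19.7 in replicate 1 and 19.3 in replicate 2. The 19 genes with a peak had 45.7 to 1580 in replicate 1 and 40.8 to 2363 in replicate 2. The groups did not overlap in replicate 1 and did in replicate 2, and the series list that defines them was made from the same reads.

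The values of a gene without a series peak need not come from the same place in both replicates. Of the 12 such genes with a region in both, 3 (pbs-2, pbs-6 and rpn-10) had summits within 50 bp of each other and 9 did not. At the peptidase gene pbs-5 the signal was 11.5 in replicate 1, 73 bp downstream of the 5' end, and 14.4 in replicate 2, 481 bp upstream, below the median of either list. At pbs-2, another peptidase gene, it was 26.1 and 67.1, the latter from a region kept in the thresholded list of replicate 2. The ubiquitin receptor rpn-10 had 39.1 and 19.2, and the lid gene rpn-7 had 24.9 and 31.0, at 406 and 997 bp upstream. Between pbs-2 and rpn-10 the replicates thus gave opposite orders. No series summit lay inside any of the 14 genes. The nearest one to an outermost 5' end was 1080 bp downstream at pbs-4, 1342 bp downstream at pbs-2 (signal 2310) and 1408 bp upstream at rpn-10 (signal 464.4), outside the promoter window in each case. At the ATPase gene rpt-4 it was 109895 bp away.

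**Figure D4:**
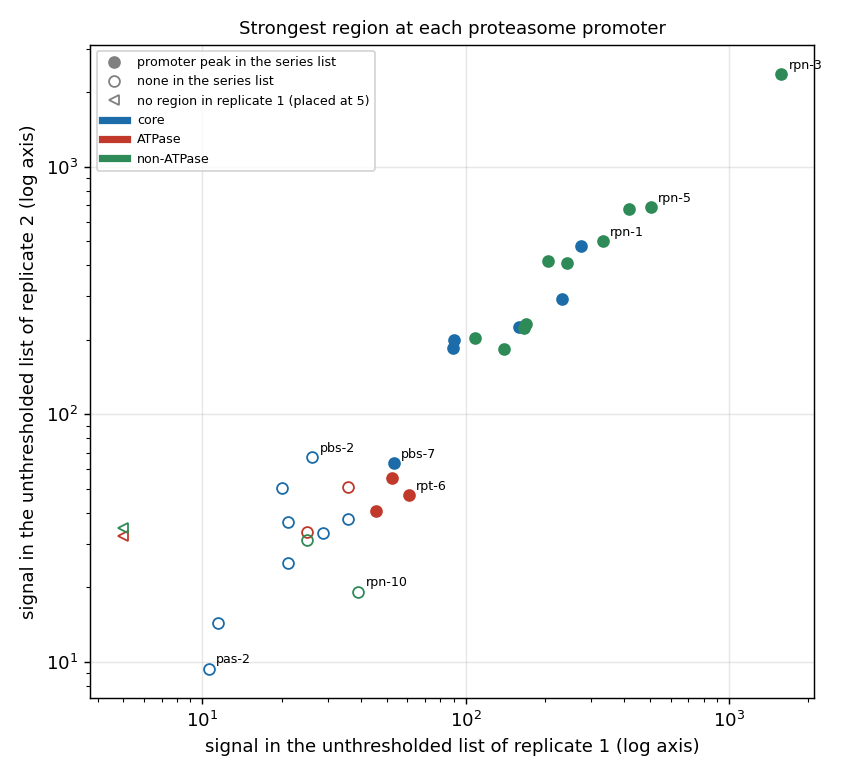
Signal of the strongest promoter region of each proteasome gene in the unthresholded list of replicate 1 against that of replicate 2, on log axes; the 2 values may come from different places in the promoter window. Filled circles have a promoter peak in the series list, open circles have none, and the 2 triangles, rpt-5 and rpn-13, have no region in replicate 1. The non-ATPase and most core peaks lie apart from the ATPase peaks, which sit between 40.8 and 60.8 in both lists.

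Across the 15 genes with a peak in both replicate lists, the order of signals was close. For the percentiles Spearman's rho was 0.964, and for log2 signals Pearson's r reached 0.97 (n = 15 genes, a description over genes that share the same 2 libraries). The signal in replicate 2 was 1.51 times that in replicate 1 at the median gene (range 1.26 to 2.22), and 1.49 times over the 1869 genes with a peak in both. The highest ratios were at pas-7 (2.22), pas-6 (2.07) and rpn-12 (2.02), and the lowest at pbs-1 (1.26). Pas-6 and pas-7 were also the genes whose percentile differed most between replicates, 40.2 against 64.4 and 40.4 against 66.2. The summits of the 2 replicates were 10 bp apart at the median gene and within 50 bp at 14 of 15. At rpn-2 they were 115 bp apart.

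The 33 genes are spread over the 5 autosomes, none on X. On chromosome I, 4 of 10 proteasome genes had a promoter peak, against 21% of all genes there, and on chromosome II, 5 of 7, against 13.5%. On chromosome III, 6 of 8 had one, against 22.8%, on chromosome IV, 2 of 3, against 14.4%, and on chromosome V, 2 of 5, against 7.23%. The share was above that of the chromosome's genes on each autosome.

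A list of other genes of the ubiquitin pathway was described beside the subunits. Of 64 symbols 63 were in the annotation, and 22 of these (34.9%) had a promoter peak in the series list, against 12.8% of all genes, with 17 in the list of replicate 1 and 21 in that of replicate 2. The highest was eel-1, a HECT-type ubiquitin ligase, at 3740 (rank 13), with 1550 and 2267 in the replicates. The ubiquitin genes themselves were next: ubq-2, a ubiquitin fused to a ribosomal protein, at 2295, and the polyubiquitin gene ubq-1 at 1655, with its summit 976 bp upstream, near the edge of the promoter window. The segregase gene cdc-48.1 had 1600.0, aip-1, homologous to a proteasome-associated stress protein of mammals, 1348, and ubxn-1, a cofactor of the segregase, 1263. The ubiquilin gene ubql-1 had 822.7 and the cullin gene cul-4 had 701.5. These 8 signals lay in the range of the non-ATPase genes with a peak, but the 8 were picked as the strongest of the 22. The summits of ubq-2, aip-1, ubxn-1 and ubql-1 also lay in the promoter window of another gene. The 22 include rad-23, through the summit it shares with rpn-12. The lowest of the 22 signals was 71.9, below the lowest non-ATPase signal of 311.4. Of the csn genes of the COP9 signalosome, a complex built on the same plan as the lid, 0 of 6 had a promoter peak in the series list, a number too small to set apart from the 12.8% of all genes, and csn-6 had one in the list of replicate 1 (signal 44.8). Cullins had one at 2 of 6. The genes skn-1, png-1 and ddi-1, of which the latter pair encode the enzymes that process SKN-1A, had no promoter peak in the series list or in either replicate's list.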

How the data were processed

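Whole young adults of 1 group were profiled by ChIP-seq in 2 biological replicates. Per the labels, chromatin was sonicated to 200 to 800 bp and lists are on ce11. Each replicate's list was derived from its own filtered alignments and the series lists from those of both, per the notes deposited with the lists; aligner, peak caller and read depth: not given in the sources used here. The deposited signal of each peak and its score, capped at 1000, are the authors' values. The lowest score in the thresholded lists corresponds to an irreproducible discovery rate of about 0.01. Peaks were ranked by signal, within each list only.

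Summits were assigned to the promoter windows of Ensembl WBcel235 genes, and the strongest was kept per gene. A summit may serve several genes. No test was made: counts and medians are set beside those of all genes. Lids and bases were split by textbook roles. The members and lists were chosen with earlier results of these data known. By the naming rule, every subunit gene, its promoter partners, the 8 strongest ubiquitin pathway genes and skn-1, png-1 and ddi-1 could be named; the counts of 6 csn and 6 cul genes were added. Sequences were shown for the 2 strongest genes of each group with a window off chromosome I and with at most 30 bases of UTR, which left out rpt-3 (rpt-1 took its place) and rpn-11; those showing chosen words were added. The assignment was tested on simulated data: 200 of 200 planted summits were handled as planted. Scripts ran in Python 3.11.15 (pandas 2.3.3, numpy 2.4.6; figures with matplotlib 3.10.9). Alternatives were other windows, the nearest or outermost 5' end, the conservative list, each replicate's list, the stronger 50% of the series list and collapsed overlaps.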

Additional observations from a re-analysis of the deposited data

How the results depend on the processing

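Of 133 values recomputed under alternatives, 109 were labelled the same as the reported value, 24 moved and 0 reversed. Most were counts, which cannot change sign, so the absence of reversals says little. A count was labelled the same up to a ratio of 1.5. The 22 ubiquitin pathway genes with a peak, for example, became 15 in the stronger 50% of the list under that label. The count of proteasome genes with a promoter peak was 15 to 20 under the alternatives run, while the share of all genes ran from 8.52% to 15.8%. The count was 17 with a window of 500 bp upstream to 100 bp downstream (without rpt-3 and rpn-6.2), against 10.2% of all genes. It was also 17 with the outermost 5' end alone (without rpn-6.1 and rpn-6.2), against 12.1%. With 2000 and 500 bp it was 20 (with rpn-10), against 15.8%. The ATPase count of 3 became 0 in the stronger 50% of the series list, against 8.52% of all genes. With 1 replicate left out it ranged from 0 (replicate 1 alone, against 9.95%) to 2 (replicate 2 alone, against 12%). The median percentile of 73.97 was 75.88 with the 2000 and 500 bp window, 72.95 in the conservative list, 72.72 with overlapping peaks collapsed, 59.26 in the stronger 50%, and 69.23 to 69.81 with 1 replicate left out. A percentile is taken within each list, so lists of other lengths move it. The median distance of -228 bp was -188 bp with the 500 and 100 bp window, the nearest 5' end or the outermost 5' end, -208 bp in the conservative list, and -239.5 to -230 bp with 1 replicate left out; the cause was not tested. The other moved values were counts of words near summits. No paired analysis was possible because there is 1 group and no test. The depth of the libraries is unknown, so the absence of a peak is not the absence of binding.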
